A study of Mus musculus with 4 samples.

Results

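The genes of the cytosolic ribosomal proteins were examined in mouse prefrontal cortex under a starch or a sucrose diet in wild-type and Glo1 heterozygous mice. Members were chosen by name: gene names starting with Rpl or Rps and a digit, together with Rplp0, Rplp1, Rplp2 and Rpsa, without the S6 kinase names and without names marked as pseudogenes. This gave 87 of the 27248 gene names on the array. Of these, 77 are core ribosomal proteins and 10 are other names that the rule takes, namely Rpl10l, Rpl22l1, Rpl36al, Rpl37rt, Rpl39l, Rpl3l, Rpl7l1, Rps19bp1, Rps27l and Rps4l. Most of the 10 are paralogs, and Rps19bp1 is a binding partner of a ribosomal protein. A gene was called measured when at least 1 of its probes was well above background and free of outlier marks on all 4 arrays, and 83 of the 87 members were measured, among 20655 measured genes in all.

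The mice were of strain B6J and 3 months old, and had eaten starch or sucrose for 70 days from postnatal day 21. The 4 groups were wild-type on starch, wild-type on sucrose, Glo1 heterozygous on starch and Glo1 heterozygous on sucrose, where Glo1 encodes the methylglyoxal-detoxifying enzyme glyoxalase 1. Total RNA from 3 mice of a group was pooled, and each pool was labelled with Cy3 and hybridised to 1 single-colour Agilent array. With 1 array a group there is no replicate, so no difference below has an error over mice or a p-value, and no change can be set against the spread between animals. The arrays shared 1 slide, so position on the slide and group cannot be told apart. In bulk tissue, fewer cells of a type and less RNA per cell cannot be told apart.

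Ribosomal proteins assemble with ribosomal RNA in the nucleolus into a small subunit, which reads the mRNA, and a large subunit, which joins amino acids. Cells need them in near equal amounts, and their mRNAs are among the most abundant of a cell, brain cells included. Their transcripts typically begin with a short run of pyrimidines (C or T in the DNA), the terminal oligopyrimidine tract, through which the growth-regulating kinase mTOR and the binding protein LARP1 control their translation.

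Runs of C or T stand close to the RefSeq start sites of many of the genes described below. The 11 windows of 30 bases below were picked to show long and short runs: each runs from 20 bases before to 10 bases after an annotated start, 5′ to 3′ on the strand of the gene, with the longest run of C or T in capitals. The first 8 genes have long runs, the paralog Rpl22l1 among them. The last 3 have short ones, and of these Rps12 is a core gene, Rpl3l a muscle-type paralog and Rps19bp1 the binding protein.
Rpl7a: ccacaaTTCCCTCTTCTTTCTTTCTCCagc
Rpl34: ccgCCCCTTCCTTTTCCTCTTCCggggacg
Rpl35: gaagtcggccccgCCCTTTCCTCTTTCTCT
Rpl4: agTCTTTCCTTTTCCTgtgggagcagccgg
Rpl38: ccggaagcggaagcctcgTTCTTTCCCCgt
Rpl18: acgagtgcgtctcgcaggccgCTCTTTCCC
Rplp2: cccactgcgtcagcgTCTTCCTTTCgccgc
Rpl22l1: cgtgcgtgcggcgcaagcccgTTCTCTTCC
Rps12: TTaaataccgtcatgcggccaccgccggcc
Rpl3l: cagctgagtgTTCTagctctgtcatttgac
Rps19bp1: accgccagggcggaagtagCTCgccgcgtg
On build GRCm38.p6 these windows lie at chr2:26910787-26910816 (plus strand), chr3:130730328-130730357 (minus), chr2:39005122-39005151 (minus), chr9:64173367-64173396 (plus), chr11:114668560-114668589 (plus), chr7:45718051-45718080 (plus), chr7:141447631-141447660 (plus), chr3:28805488-28805517 (plus), chr10:23787200-23787229 (minus), chr17:24727806-24727835 (plus) and chr15:80264297-80264326 (minus), in the same order. Start-site sequence was available for 66 members, with 78 start sites in all. A run of at least 6 bases that are C or T stood in 51.3% of the members' windows and in 55.2% of those of core members alone, against 30.3% of the windows of all 32851 RefSeq start sites. A run can lie wholly before the annotated start, and so outside the transcript, as the capitals of Rpl4 do. These are thus shares of windows with a run and not of genes with the tract, and a short run does not show that the tract is lacking.

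Over the longer window from 250 bases before to 50 after the start, searched on both strands, CCGGAAG, the core of the binding site of ETS-family factors, was found at 34.6% of the members' start sites and at 8.86% of all start sites. The letters CTTTCC stood at 50% against 26.6%, and AAGATGGC, the core of the YY1 motif, at 10.3% against 2.75%. TATAAA was found at 8.97% of the members' start sites and 13.6% of all. CTTTCC can lie inside the pyrimidine run, so these counts overlap with those of the runs. These matches describe letters in a window and say nothing of binding in these samples.

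The levels below are the processed signal of a probe divided by the 75th percentile of its array, and changes are differences of log2 levels. The 75th percentile was 1780 to 1929 intensity units over the 4 arrays, lowest on the wild-type starch array, and 77.6% to 80.2% of spots were well above background. Probes differ in how well they bind, so levels are compared only within a probe. The tissue label was checked on 10 cortical neuron markers, all measured on the 4 arrays, with summed levels of 137 to 164. Markers of other tissue differed between arrays. The sum over 6 blood genes was 277 on wild-type starch, 135 on wild-type sucrose, 235 on heterozygous starch and 152 on heterozygous sucrose. The sum over 10 choroid plexus markers was 70.9 on heterozygous sucrose and 0.947 to 2.25 on the other arrays, and that over 9 of 10 striatum markers was 34.1, 55.9, 52.2 and 29.3 in the order just given. Immediate early genes, 8 in number, summed to 57.1 and 38.7 in wild-type mice and to 64.999 and 35.1 in heterozygous mice on starch and sucrose. Of 6 pituitary markers, Gh and Cga were not measured on all arrays, and the other 4 summed to 0.695 to 0.747. The part of these differences in the results below was not tested.

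The ribosomal protein genes stood highest on the wild-type starch array and lowest on the heterozygous sucrose array. Their median level was 38.7 on wild-type starch, 36.6 on wild-type sucrose, 37.3 on heterozygous starch and 35.02 on heterozygous sucrose, and they made up 4.35%, 4.02%, 4.08% and 3.92% of the summed level of all measured genes. Relative to each gene's own mean over the 4 arrays, the median member was 0.11 above on wild-type starch, 0.01 below on both intermediate arrays, and 0.09 below on heterozygous sucrose on the log2 scale. On wild-type starch 77 of the 83 members had their highest value, which is so for 31.4% of all genes tested. The heterozygous sucrose array held the lowest value of 72 members, and of 26.3% of all genes tested. Other genes of the brightest 10%, to which most members belong by signal, were highest on wild-type starch in 35.4% of cases and lowest on heterozygous sucrose in 48.7%.

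**Figure D1:**
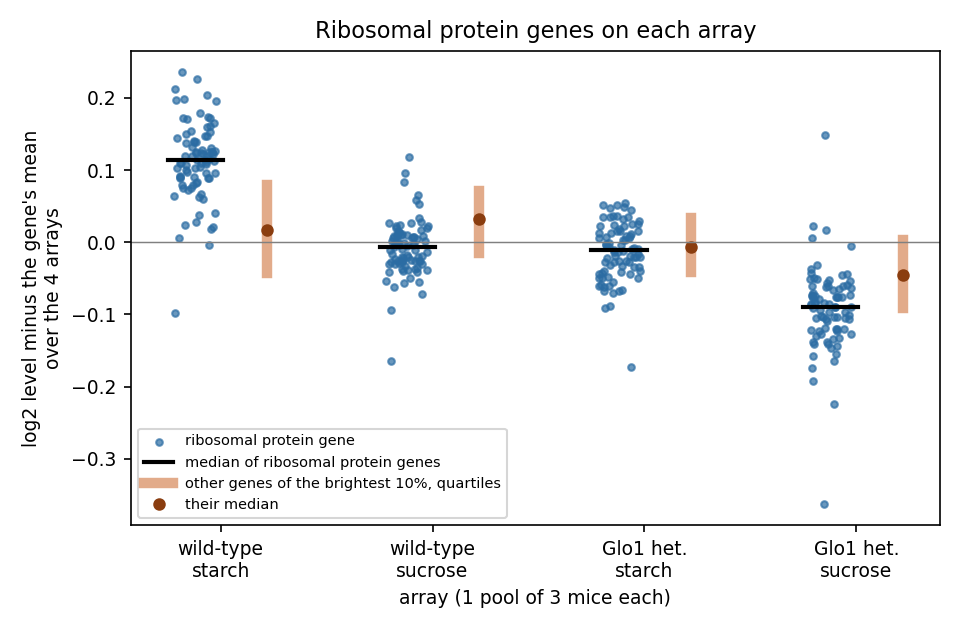
Log2 level of each of the 83 measured ribosomal protein genes minus its mean over the 4 arrays (vertical axis), by array (horizontal axis). Points are genes and the black line is their median, and the orange bar and point are the quartiles and median of the 1990 other genes of the brightest 10%. The members' medians run from 0.11 on wild-type starch to -0.09 on heterozygous sucrose, and 1 gene, Rps4l, is highest on heterozygous sucrose.

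Between the diets, the members were slightly lower on sucrose whichever the genotype. In wild-type mice their median change was -0.13 (-8.36%), and 79 of 83 were lower, against 50.1% of all genes tested. In heterozygous mice it was -0.08 (-5.22%), with 76 lower, against 49.9%. The median over all genes was -0.00 in wild-type and 0.00 in heterozygous mice. Few members passed a log2 change of 0.25, the size used here to count: 1 in wild-type mice and 1 in heterozygous mice, where 28.2% and 22.2% of all genes passed it. Under quantile normalization 62 and 57 of 83 were lower, and under cyclic loess, an alternative added after the values were seen, 72 and 64. None changed 2-fold, while 1.48% and 1.77% of all genes did. The interquartile range was 0.07 over the members in each diet comparison, 0.29 and 0.23 over all genes, and 0.18 and 0.12 over the other genes of the brightest 10% by signal, of which 7.64% and 5.18% passed 0.25. Blood genes too were lower with sucrose in either genotype (6 of 6, median -1.46 in wild-type and -0.78 in heterozygous mice), as were immediate early genes (8 of 8, medians -0.69 and -1.02). Of 9 glial markers 8 were lower among wild-type mice (median -0.21) and 6 among heterozygous ones (-0.08). Other lists went the other way: on sucrose all 10 cortical neuron markers (median 0.27) and all 9 striatum markers (0.88) were higher among wild-type mice. Among heterozygous mice 5 of the neuron markers were lower (median -0.01), as were all of the striatum markers (-0.92), while all 10 choroid plexus markers were higher (4.51). The part of these lists in the members' change was not tested.

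Between the genotypes, the members were lower in heterozygous mice on both diets with the scaling used here, and on sucrose this did not hold under another scaling. On starch their median change was -0.12 (-8.05%), and 79 of 83 were lower, against 54% of all genes. On sucrose it was -0.08 (-5.21%), with 74 lower, against 54.9%. Quantile normalization gave 59 lower on starch and 42 of 83 on sucrose (median -0.00), and cyclic loess gave 53 and 41, with the median on sucrose turned in sign (0.00). The 0.25 mark was passed by 4 members on starch (22.3% of all genes) and by 1 on sucrose (20.2%). In these comparisons blood genes were all lower on starch (median -0.31) and all higher on sucrose (0.28), and of 9 striatum markers 8 were higher on starch and all were lower on sucrose (medians 0.81 and -1.21). Choroid plexus markers were all higher on sucrose (4.09), and 6 of 10 were lower on starch (-0.02). Of 8 immediate early genes 7 were higher on starch (0.25) and 7 lower on sucrose (-0.15). Of 10 cortical neuron markers 8 were higher on starch (0.07) and 6 lower on sucrose (-0.15). Of 9 glial markers 5 were lower on starch (-0.02) and 7 higher on sucrose (0.16). No member reached 2-fold, against 0.813% and 1.71% of all genes.

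Heterozygous mice on sucrose set against wild-type mice on starch, a contrast that adds a diet and a genotype difference, gave the widest separation with the scaling used here. The median change of the members was -0.21 (-13.3%), and 82 of 83 were lower, against 52.7% of all genes. In the same contrast blood genes were lower (6 of 6, median -1.14), as were immediate early genes (8 of 8, -0.88), striatum markers (9 of 9, -0.12) and 7 of 9 glial markers (-0.11), and choroid plexus markers were higher (10 of 10, 4.95). The 0.25 mark was passed by 27 members, all of them lower, which is 32.5% of the members, beside 16.2% of all genes that were lower by as much and 31% that passed it in either direction. The count was 6 under quantile normalization and under cyclic loess (5 lower and 1 higher in each), 14 after the median of other genes at the members' level was taken off, 17 after that of all genes was, and 40 with arrays scaled to their median. With quantile normalization 61 of 83 were lower, and with cyclic loess 67. The wild-type diet comparison had 62 and 72 lower under these. Its median under cyclic loess was -0.0611, beside -0.0582 for heterozygous sucrose against wild-type starch. In the latter contrast no member reached 2-fold with the scaling used here, against 2% of all genes. The interaction, the diet change in heterozygous minus that in wild-type mice, had a median of 0.04 over the members. It was past 0.25 in 3 members (30.6% of all genes), below in Rpl3 (-0.33) and above in Rpl7l1 (0.28) and Rpl37 (0.26), and past 1 in none (2.88% of all genes). The 5 pairwise comparisons share arrays, so their counts are not independent of each other.

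**Figure D2:**
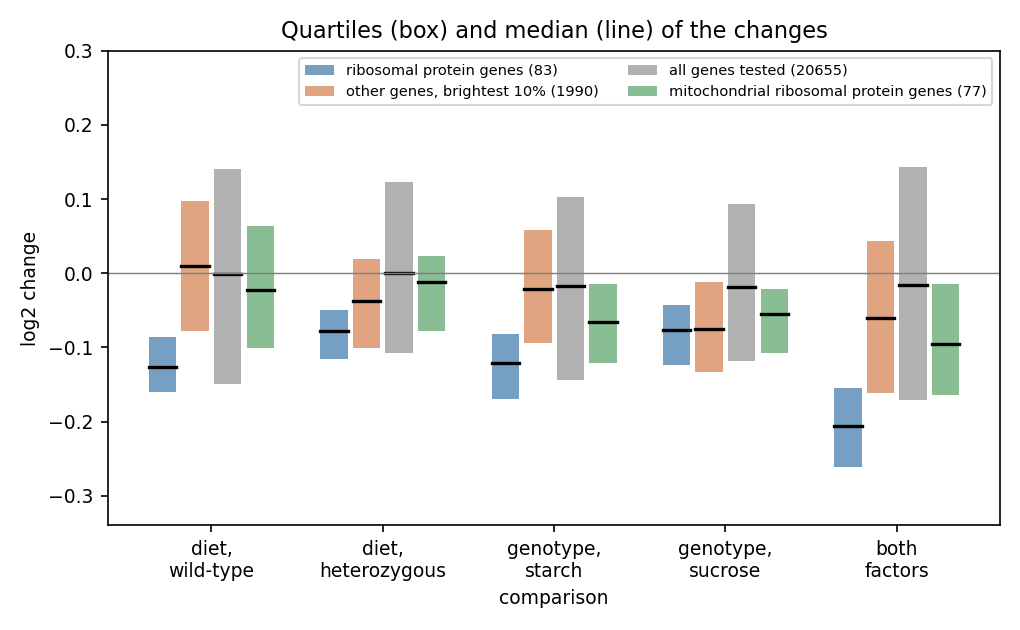
Log2 change (vertical axis) in the 5 pairwise comparisons (horizontal axis) for the ribosomal protein genes, the other genes of the brightest 10%, all genes tested and the mitochondrial ribosomal protein genes. Boxes run from the lower to the upper quartile and lines are medians, from 1 array a group with no error over mice. The members' boxes lie below 0 in each comparison, with medians from -0.08 to -0.21. In the genotype comparison on sucrose the other bright genes have a median of -0.08 too.

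Brightness moved with these changes. The other 1990 genes of the brightest 10% had median changes of 0.01 and -0.04 for diet in wild-type and heterozygous mice, -0.02 and -0.08 for genotype on starch and on sucrose, and -0.06 for heterozygous sucrose against wild-type starch. On sucrose, then, the median genotype change of the members (-0.08) was about that of other bright genes. At a mean log2 level of 4 to 5, the diet change in wild-type mice was -0.12 over 28 members and 0.02 over 687 other genes. At 5 to 6 it was -0.13 over 34 members and -0.01 over 299 others, and from 6 up it was -0.11 over 11 members and -0.08 over 115 others. For heterozygous sucrose against wild-type starch, the same 3 bands gave -0.18, -0.21 and -0.24 for members and -0.06, -0.10 and -0.20 for other genes. The gap between members and other genes was thus, in both comparisons, widest in the band of 4 to 5 and narrowest in the brightest band.

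**Figure D3:**
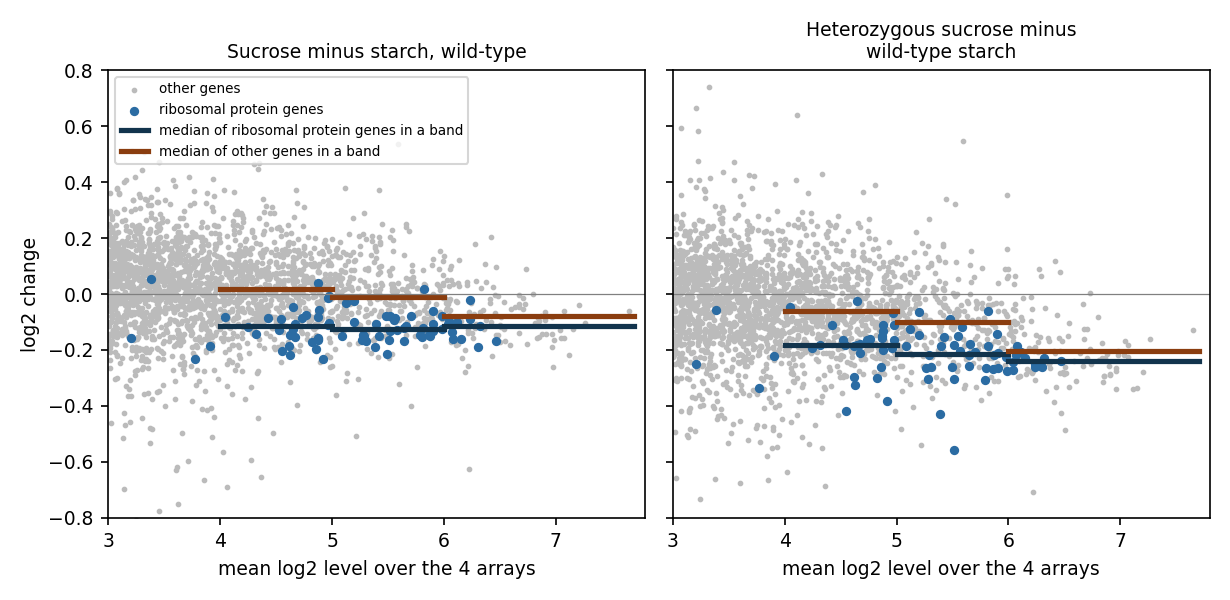
Log2 change (vertical axis) against the mean log2 level over the 4 arrays (horizontal axis, from 3 up) for sucrose minus starch in wild-type mice (left) and heterozygous sucrose minus wild-type starch (right). Blue points are ribosomal protein genes, grey points other genes (those beyond the axis are not drawn), and horizontal lines are medians within bands of level. On the right, the medians of members fall from -0.18 to -0.24 and those of other genes from -0.06 to -0.20 towards the brightest band.

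The size of the members' change depended on how the arrays were scaled to each other. Quantile normalization, which makes the whole distribution of the arrays equal, gave diet medians of -0.04 (wild-type) and -0.01 (heterozygous), -0.04 and -0.00 for genotype on starch and sucrose, and -0.05 for heterozygous sucrose against wild-type starch. Cyclic loess, which removes trends with brightness between arrays, left medians of -0.06, -0.02, -0.03, 0.00 and -0.06. After the median of other genes at the members' level was taken off, likewise an added step, the medians were -0.15, -0.05, -0.12, -0.02 and -0.18.

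**Figure D4:**
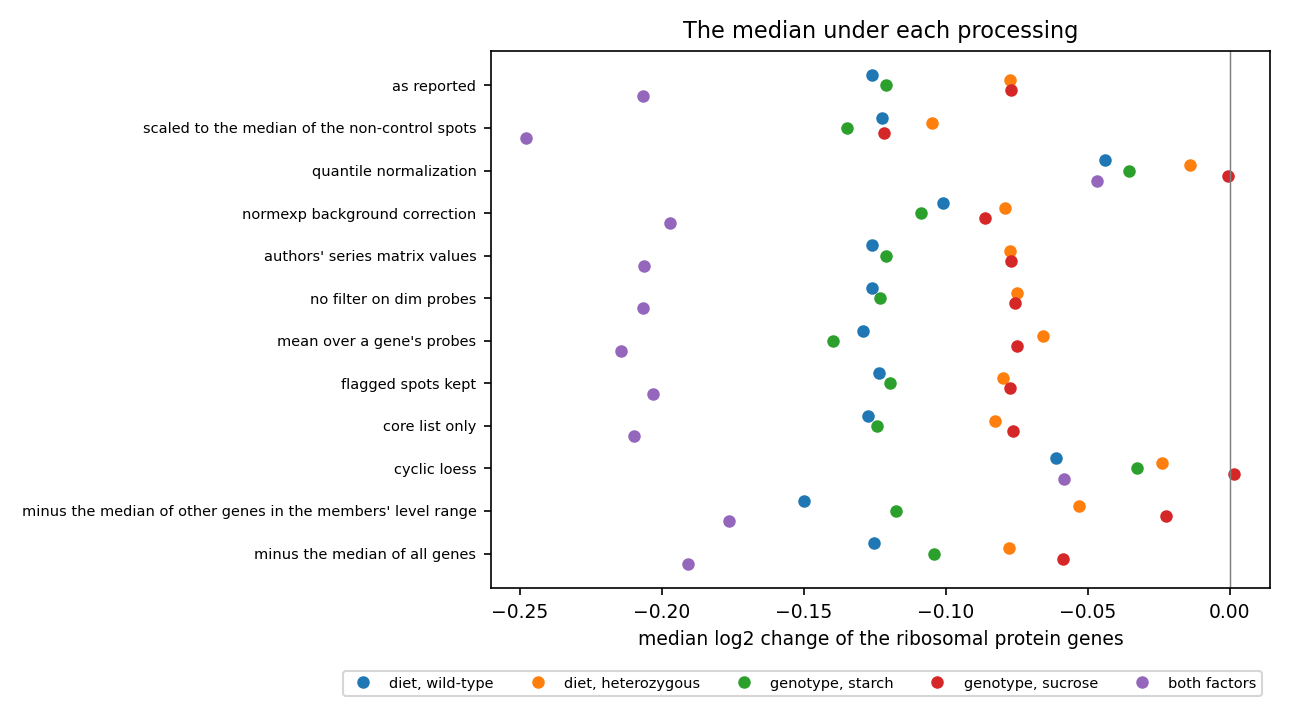
Median log2 change of the measured ribosomal protein genes (horizontal axis) in the 5 pairwise comparisons under each processing (vertical axis). The values as reported run from -0.21 to -0.08. Under quantile normalization they run from -0.05 to -0.00 and under cyclic loess from -0.06 to 0.00.

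Repeated spots give the precision of a probe within an array. Of the member probes, 65 probes of 48 genes were printed 10 times on each array, with a median SD between spots of 0.0412 on the log2 scale (0.0148 to 0.105) and a median standard error of 0.0192 for the diet change in wild-type mice. By more than 2 such standard errors, 62 of the 65 were lower on sucrose in wild-type and 54 in heterozygous mice. In heterozygous mice 60 were lower on starch and 56 on sucrose, and 64 were lower on heterozygous sucrose than on wild-type starch. Higher by as much were 0, 1, 0, 1 and 0 probes. The share of all probes printed 10 times that passed the same mark is not given here, so the counts cannot be set against it. These standard errors cover spots on 1 array. They leave out labelling, hybridisation and scaling between arrays, and the difference between mice. The change from the scaling used here to cyclic loess moved the members' median genotype change on sucrose from -0.08 to 0.00.

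The measured order of the members was only weakly shared between comparisons of the same factor. The diet changes in wild-type and in heterozygous mice, which share no array, had a Pearson r of 0.14 and a Spearman rho of 0.02 over the 83 members, and 73 members were lower in both. The genotype changes on starch and on sucrose had an r of 0.31 and a rho of 0.31, with 71 lower in both. Over all genes tested r and rho were 0.24 and 0.29 for diet and 0.06 and 0.16 for genotype, with 6233 and 6854 of 20655 lower in both. Each is a description over genes that share 4 arrays. The members' changes spread little, with interquartile ranges of 0.07 in both diet comparisons and of 0.09 and 0.08 for genotype. A difference of single spots had an SD of 0.0582, so a low r cannot tell a differing order from spot error.

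**Figure D5:**
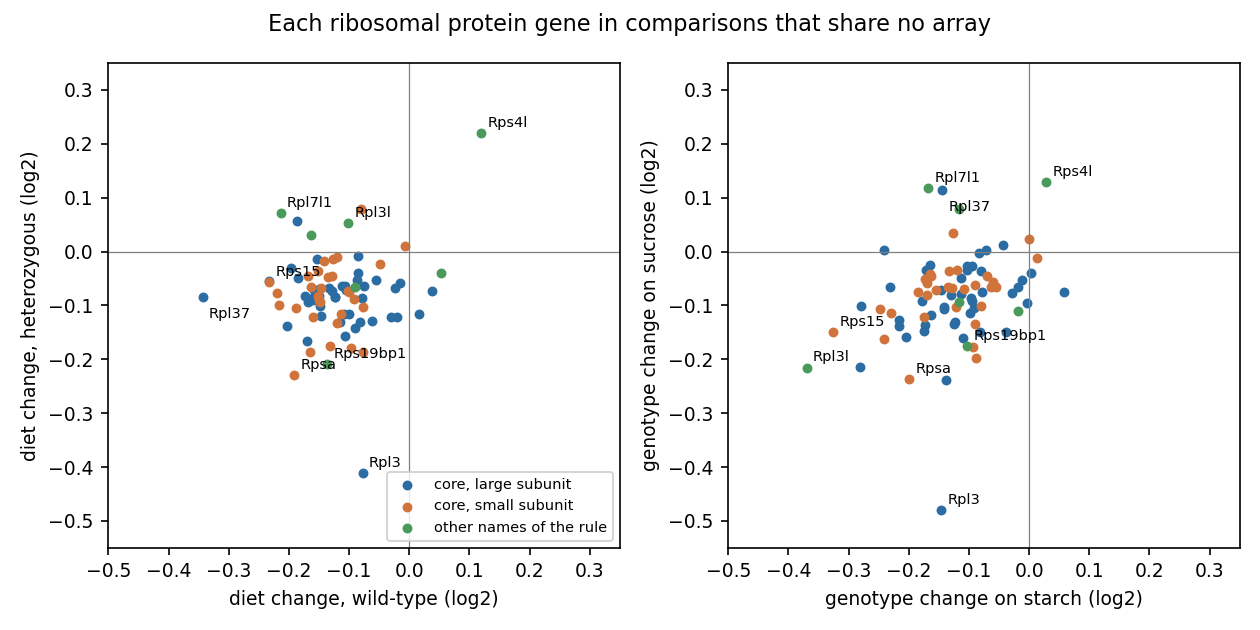
Log2 change of each measured ribosomal protein gene for diet in wild-type (horizontal axis) against heterozygous mice (vertical axis, left panel) and for genotype on starch against sucrose (right panel), coloured by subunit. Most points lie in the lower left quadrant, 73 in the left and 71 in the right panel, without a clear order along the diagonal (r of 0.14 and 0.31). Rps4l lies at the upper right in both, and Rpl3 lies lowest.

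By subunit, the 45 measured core genes of the large subunit and the 31 of the small subunit had similar medians. The wild-type diet medians were -0.11 and -0.13 (43 and 31 lower), and the heterozygous ones -0.08 and -0.08 (44 and 29 lower). For genotype on starch they were -0.11 and -0.13, and on sucrose -0.09 and -0.07. For heterozygous sucrose against wild-type starch, they were -0.21 and -0.22, and all 76 core genes were lower with the scaling used here. This cannot hold under quantile normalization or cyclic loess, where 61 and 67 of all 83 measured members were lower.

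Among the 83 measured members the largest change was that of Rpl3, by 1 of its 3 probes. Rpl3 encodes a large-subunit protein near the peptidyl transferase centre. Its brightest probe had levels of 52.4 on wild-type starch, 49.7 on wild-type sucrose, 47.4 on heterozygous starch and 35.6 on heterozygous sucrose. The heterozygous sucrose array stood apart from the other 3. The change was -0.41 for diet in heterozygous mice and -0.48 for genotype on sucrose, against -0.08 and -0.15 for the diet change in wild-type mice and the genotype change on starch. The other probes of Rpl3 did not share this low value. The probe printed 10 times had levels of 36.6, 34.1, 33.2 and 32.6 and changes of -0.03 and -0.06 in those comparisons, and the third had 0.04 and -0.08. The sequences are shown because the answer for this gene depends on which of them is read, the probe with the low value first, then the probe printed 10 times, then the third.
Rpl3, brightest probe: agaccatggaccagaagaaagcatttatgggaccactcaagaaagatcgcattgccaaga
Rpl3, repeated probe: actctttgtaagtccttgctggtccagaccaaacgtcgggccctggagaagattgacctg
Rpl3, dimmest probe: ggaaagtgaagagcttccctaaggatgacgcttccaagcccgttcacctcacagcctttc
On build mm9, as the files give it, the brightest probe spans chr15:79908295-79908445, longer than its 60 bases.

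Rps15 and Rpl34 carried the lowest genotype values on starch among core genes. Rps15, a small-subunit protein near the decoding site, had levels of 35.5, 30.2, 28.4 and 27.3 on wild-type starch, wild-type sucrose, heterozygous starch and heterozygous sucrose. It was highest on wild-type starch, with a genotype change on starch of -0.33 and a wild-type diet change of -0.23. Rpl34, of the large subunit, had 27.4, 23.8, 22.6 and 20.5, a decline through all 4 arrays, and a genotype change on starch of -0.28. Its probe was printed 10 times, which gave that change a standard error over spots of 0.012.

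Rpl18, of the large subunit, had levels of 15.8, 13.5, 13.1 and 12.6 in the same array order. The wild-type starch array stood apart, and its wild-type diet change was -0.23 and its genotype change on starch -0.28, with standard errors over spots of 0.016 and 0.015. Its other probe gave -0.19 and -0.20. Rpsa, the small-subunit protein also known as the laminin receptor, had 48.1, 42.2, 41.9 and 35.8. Both factors went with lower values there: -0.19 and -0.23 for diet, and -0.20 and -0.24 for genotype. Its other probe gave -0.26 and -0.12 for diet and -0.26 and -0.13 for genotype. Rpl38, a large-subunit protein known for a role in the translation of Hox mRNAs, had 81.1, 79.9, 73.7 and 67.7. Its diet change in wild-type mice was only -0.02, and its genotype change on sucrose was -0.24.

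Rpl37 had the lowest diet change in wild-type mice, -0.34, from a dim probe with levels of 0.107, 0.0847, 0.0973 and 0.0917. Its genotype change on sucrose was 0.11, so that it stood among the 3 highest members there. No repeated spots give the precision of this dim probe.

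A few core genes did not have their highest value on wild-type starch. Rpl14, a large-subunit protein, had levels of 56.4, 57.0, 58.7 and 54.1, and its genotype change on starch was 0.06, the highest of all members. A second probe of Rpl14 overlapped the first by 51 bases with 1 difference, written as G16A (brighter probe's base, position counted from 1 at the 5′ end of these 30-base windows, dimmer probe's base), capitalised here.
Rpl14, brighter probe: acacagaataataaaGgttctttttgacgg
Rpl14, dimmer probe: acacagaataataaaAgttctttttgacgg
The dimmer probe had levels of 35.8, 33.96, 33.2 and 33.8. Its genotype change on starch was -0.11, opposite in sign to that of the brighter probe. Rps3a1, of the small subunit, was at 45.8, 43.4, 46.2 and 43.1, lower on sucrose than on starch, with genotype changes of 0.01 and -0.01 from its brightest probe. Its other 3 probes did not share this, with a median genotype change on starch of -0.21. Rpl36a, of the large subunit, had 29.96, 30.8, 29.2 and 27.7, with diet changes of 0.04 (wild-type) and -0.07 (heterozygous), while the median wild-type diet change of its other 2 probes was -0.11.

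Rps2, which lines the mRNA entry of the small subunit, had a diet change of 0.08 in heterozygous mice, second among the members. Its brightest probe, printed 10 times, had levels of 17.3, 16.3, 15.8 and 16.7, lowest on heterozygous starch. Its other measured probe had 14.97, 17.2, 14.1 and 13.9, highest on wild-type sucrose. They gave wild-type diet changes of -0.08 and 0.20, and genotype changes on sucrose of 0.03 and -0.30. The probes are shown because they gave opposite signs.
Rps2, brightest probe: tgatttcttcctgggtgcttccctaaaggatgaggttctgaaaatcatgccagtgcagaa
Rps2, other probe: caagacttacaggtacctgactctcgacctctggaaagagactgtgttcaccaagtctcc
On mm9 the files place them apart on 1 chromosome, at positions starting at 24857583 and 42864841 of chromosome 17. Ribosomal protein genes have many processed pseudogenes, and whether a probe also binds a copy was not tested.

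The stalk of the large subunit, where elongation factors dock, is built by Rplp0, Rplp1 and Rplp2. Rplp0, also a common reference gene, had levels of 27.8, 24.97, 24.8 and 24.5, and Rplp1 had 86.2, 79.6, 80.5 and 73.5. Rplp2 had 72.9, 65.3, 68.3 and 64.1. All 3 were highest on wild-type starch, and Rplp0 hardly differed between the other 3 arrays. In wild-type mice their diet changes were -0.15, -0.11 and -0.16, and in heterozygous mice -0.01, -0.13 and -0.09.

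Rpl5 and Rpl11 form, with a small ribosomal RNA, the particle that binds the p53 regulator Mdm2 when ribosome assembly is disturbed. Rpl5 had levels of 16.6, 14.6, 14.7 and 14.2, and Rpl11 had 63.6, 60.9, 60.1 and 54.97. Rpl5 was set apart by the wild-type starch array and Rpl11 by the heterozygous sucrose array. From wild-type starch to heterozygous sucrose they changed almost alike, by -0.22 and -0.21. Of 6 genes of the p53 response, 6 were lower on sucrose in wild-type mice and 3 in heterozygous mice. Cdkn1a, the cell cycle inhibitor p21, was the lowest in both at -0.90 and -0.72, while Mdm2 itself was at -0.02 and 0.01.

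Proteins around the exit tunnel of the nascent chain, Rpl4, Rpl17, Rpl19, Rpl23a, Rpl26, Rpl31, Rpl35 and Rpl39, were lower on sucrose in both genotypes in 8 of 8 cases, with medians of -0.10 and -0.07. On the heterozygous arrays 7 were lower on starch and 8 on sucrose. Over all 83 measured members these counts were 79 and 76 for diet and 79 and 74 for genotype. Rpl26, which also binds the p53 mRNA, had levels of 31.9, 28.3, 27.4 and 25.9 and the lowest value of the group for heterozygous sucrose against wild-type starch by the brightest probes, -0.30. The median of its other 3 probes was -0.19. Rpl39 had 37.2, 36.6, 37.3 and 35.6, a change of -0.06 by its brightest probe, which was highest on heterozygous starch by a narrow margin. Its other 4 probes had a median change of -0.22 in that comparison and went down to -0.35. Rpl31 had 81.5, 76.5, 75.5 and 68.4, with diet changes of -0.09 and -0.14 and genotype changes of -0.11 and -0.16.

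Genes that, when mutated, cause Diamond-Blackfan anaemia in humans were 16 in number among the members. All 16 were lower on sucrose in both genotypes and in heterozygous mice on starch, and 15 were lower in heterozygous mice on sucrose, with medians of -0.14, -0.08, -0.11 and -0.07. In the same comparisons 79, 76, 79 and 74 of all 83 measured members were lower, and 50.1%, 49.9%, 54% and 54.9% of all genes tested. For genotype on sucrose, quantile normalization and cyclic loess left 42 and 41 of the 83 lower. Rpl18, described above, was the lowest of the 16 for diet in wild-type mice and, on starch, for genotype.

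Among the paralogs and other names, Rps4l was higher in each of the 4 simple comparisons. This homologue of the small-subunit gene Rps4x had levels of 3.04, 3.30, 3.10 and 3.61, lowest on wild-type starch and highest on heterozygous sucrose. Its changes were 0.12 and 0.22 for diet in wild-type and heterozygous mice and 0.03 and 0.13 for genotype on starch and sucrose. For heterozygous sucrose against wild-type starch it was the 1 of the 83 measured members that was higher, by 0.247, just short of the 0.25 mark. Its single probe has 1 spot an array, and the SD of a difference of single spots, taken from the repeated probes, was 0.0582.

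Rps27l, a p53 target and paralog of Rps27, had levels of 3.95, 3.53, 3.64 and 3.72, highest on wild-type starch, with a genotype change on sucrose of 0.08. Rpl7l1, which acts in ribosome assembly, had 0.228, 0.197, 0.203 and 0.214 and an interaction of 0.28. Rpl36al, a paralog of Rpl36a, had 10.5, 10.9, 10.4 and 10.1 by its brightest probe, highest on wild-type sucrose. Its other probe was highest on wild-type starch, with a wild-type diet change of -0.13. Rpl22 and its paralog Rpl22l1 moved alike: Rpl22 had 10.2, 9.15, 9.02 and 8.58, and Rpl22l1 had 24.9, 23.4, 23.0 and 21.9. Both declined through the 4 arrays in that order. Rps19bp1 had 4.26, 3.88, 3.97 and 3.43, with its lowest value on heterozygous sucrose and a diet change of -0.21 in heterozygous mice.

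Rpl3l, the paralog of Rpl3 of heart and skeletal muscle, was dim in this tissue, with levels of 0.0271, 0.0252, 0.0209 and 0.0217. Its signal lay below the brightest negative control spot on 3 of the 4 arrays, all but heterozygous sucrose. Its genotype change on starch, -0.37, rests on 1 spot an array near this background. Rpl10l, a paralog of testis, was not well above background on any array. Rpl39l, also known from testis, was well above background on the 2 sucrose arrays only, with a level of 0.0111 in the wild-type and of 0.0186 in the heterozygous pool. The first of these lay below the brightest negative control spot of its own array, and both lay below that of the wild-type and of the heterozygous starch array, so no fold is given.

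Rpl32 and Rpl37rt were left out because the spot of their only usable probe was marked as an outlier on the wild-type starch array. With the marked spot kept, Rpl32 had levels of 34.6, 41.9, 41.9 and 38.4 and Rpl37rt had 77.8, 98.5, 91.8 and 84.1. Both were then lowest on wild-type starch, opposite to most members.

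Genes with several probes show how far the choice of probe matters. The 60 members with at least 2 measured probes had a median spread between them of 0.10 (wild-type diet change) and 0.12 (genotype change on starch), about as large as the median changes themselves. Of all 179 measured member probes, 166 were lower on sucrose in wild-type mice and 154 in heterozygous mice. For genotype, 168 were lower on starch and 153 on sucrose. The widest spread for genotype on starch, 0.76, was that of Rps15a, where a probe with levels of 0.318, 0.183, 0.172 and 0.182 differed from 3 brighter ones with changes of -0.12 to -0.19. The chosen probes of Rps27 and Rps29 are placed by the files on chromosomes 9 and 2, while RefSeq has these genes on 3 and 12. Rps27 and Rps29 were named for this after their values were seen, and changed by -0.11 and -0.16 for diet in wild-type mice. The other 2 probes of Rps29 gave -0.19 and 0.53, the widest spread of the members in this comparison (0.73), and the probe with 0.53, the only one of the 3 placed on chromosome 12, was dim, with levels of 0.0143 to 0.0207.

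Reference genes for normalization include 3 members. Rpl13a had levels of 43.3, 38.5, 40.5 and 36.1, and Rps18 had 73.6, 67.0, 65.4 and 63.3. Both were highest on wild-type starch and lowest on heterozygous sucrose, as was Rplp0. Over 13 common reference genes, the 3 members included, 11 were lower on sucrose in wild-type mice and 12 in heterozygous mice, with medians of -0.10 and -0.05. Actb, the cytoskeletal actin, was at -0.05 and -0.00, and B2m, the light chain of major histocompatibility molecules, was the lowest of the list in wild-type mice at -0.47. For genotype, 13 of the 13 were lower in heterozygous mice on starch and 10 on sucrose. Their medians were -0.11 and -0.06, beside -0.12 and -0.08 for the 83 measured members. From wild-type starch to heterozygous sucrose, 13 of the 13 were lower, with a median of -0.18 beside -0.21 for the members.

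Other mRNAs with a terminal oligopyrimidine tract, which encode elongation and initiation factors and carrier proteins of ribosomal sequence, were partly alike. Of 20 measured, 16 were lower on sucrose in wild-type and 15 in heterozygous mice, with medians of -0.10 and -0.06, and in heterozygous mice 15 were lower on starch and 14 on sucrose (-0.07 and -0.06). Fau, which encodes a small-subunit protein fused to ubiquitin-like sequence, is outside the name rule. Fau had levels of 99.5, 89.9, 87.5 and 81.9, highest on wild-type starch and lowest on heterozygous sucrose as in most members. Tpt1, a translationally controlled growth factor, had the lowest diet change of the list in wild-type mice, -0.28, and the initiation factor Eif4b the highest, 0.19.

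Genes that build ribosomes, rather than form them, had medians near 0. Of 26 ribosome biogenesis genes, 14 were lower on sucrose in wild-type and 10 in heterozygous mice, with medians of -0.01 and 0.01, and the median from wild-type starch to heterozygous sucrose was -0.00. Polr1b, a subunit of RNA polymerase I, was lowest in wild-type mice at -0.35, and Nhp2, of the box H/ACA particles, was highest at 0.20. Of 15 genes of the mTOR pathway and translation control, 4 were lower on sucrose in wild-type and 8 in heterozygous mice, with medians of 0.04 and -0.00. In heterozygous mice 11 of the 15 were higher on starch (median 0.06) and 10 were lower on sucrose (-0.02), and the interaction had a median of -0.06 with 11 lower. Rps6ka3, a ribosomal S6 kinase, had the lowest value of the list in both diet comparisons, -0.19 among wild-type and -0.28 among heterozygous mice.

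The ribosomal proteins of mitochondria, encoded by other nuclear genes, had diet changes centred near 0. Of 77 measured, 44 were lower on sucrose in wild-type and 44 in heterozygous mice, with medians of -0.02 and -0.01. For genotype, 62 were lower on starch and 67 on sucrose, with medians of -0.07 and -0.06, beside -0.12 and -0.08 for the cytosolic genes. Mrpl47 had the lowest diet change in wild-type mice, -0.29, and Mrpl37 the highest, 0.22. These lists are set beside the members by their counts and medians, without a test of the difference.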

How the data were processed

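Each of the 4 arrays had 59305 non-control spots for 56605 probes of 60 bases, 46291 of them with a gene name. Deposited intensity values were the processed signals of Agilent Feature Extraction 11.5.1.1, which per the file headers subtracts background and removes trends within an array, with no step between arrays. The authors' deposited table of the series holds, per spot, the ratio of that signal to the array's 75th percentile, and was used as an alternative. Probe positions were those of the files (build mm9). Names and start-site windows came from RefSeq (GRCm38.p6), where all 87 member names matched.

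Each processed signal was divided by the 75th percentile of its array's non-control spots, and log2 was taken. Outlier-marked spots were left out, spots of a probe were averaged, and the brightest probe per gene, among those well above background on all 4 arrays, stood for it. No spot was marked saturated. Changes are differences of single arrays, counted at 0.25 and at 1 (2-fold). The self-test recovered changes of 0.25 or more, of random sign, put into 200 genes of simulated data. It held no smaller shift of many genes in 1 direction and no difference between arrays that varies with brightness. It therefore does not bear on the size of the members' median changes.

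Named members are the 3 highest and 3 lowest of each simple comparison, names outside the core list, and the stalk, exit-tunnel, small RNA particle and reference genes. From other lists, the highest or lowest gene was named. Further genes (Rps15a, Rps27, Rps29, Rpl22, Fau, Actb and Mdm2) were chosen after their values were seen. Members and lists were chosen with earlier results of these data known. Some genes are not reported here. Columns of other samples numbered 0. Python 3.11.15, pandas 2.3.3, R 4.3.3 and limma 3.58.1 (quantile, cyclic loess, and normexp with an offset of 50) were used.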

Additional observations from a re-analysis of the deposited data

Results flagged for a closer look

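Striatum and blood markers went opposite ways between the arms of a factor, and these differences were not tested. Every striatum marker measured was higher on sucrose in wild-type mice and lower in heterozygous mice, and the median change in heterozygous minus that in wild-type mice was -1.80. Their median genotype change on sucrose was lower than that on starch by a difference of -2.02, with 9 of 9 lower on sucrose and 8 of 9 higher on starch. The 6 blood genes were all lower in heterozygous mice on starch and all higher on sucrose, a difference of 0.60 between the medians.

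Probes named for ribosomal protein pseudogenes, which the name rule leaves out, gave signal above every negative control spot of the same array. The lowest level over the 4 arrays was 16.2 and 29.5 for both probes of Rpl31-ps12, 16.9 for Rpl17-ps8, 9.45 for Rpl34-ps1 and 0.103 for Rps15a-ps6. Rpl17-ps8 had changes of 0.10 and -0.10 for diet in wild-type and heterozygous mice and 0.21 and 0.02 for genotype on starch and sucrose. Whether these probes bind transcripts of the parent genes was not tested.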

How the results depend on the processing

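With 1 array a group, neither a spread over mice nor a left-out replicate could be had. No paired analysis was possible because each group has 1 array and the labels pair none. Medians (diet in wild-type, diet in heterozygous, genotype on starch, genotype on sucrose, both factors together) were -0.0437, -0.0141, -0.0353, -0.000525 and -0.0466 under quantile normalization. Under cyclic loess, added after the data were seen, the first was -0.0611, the genotype change was at -0.0327 with starch and at 0.00168 with sucrose, the latter with turned sign, and both factors gave -0.0582. The medians kept their sign in all other alternatives, and over all of them they lay between -0.15 and -0.04, -0.10 and -0.01, -0.14 and -0.03, -0.12 and 0.00, and -0.25 and -0.05. Counts past 0.25 were 1, 1, 4, 1 and 27, and 3 for the interaction. Median scaling gave 2, 7 and 5 for diet in heterozygous mice and genotype on starch and sucrose, and 40 for both factors. Quantile and cyclic loess each gave 1 for genotype on starch and 6 for both factors. Without the filter on dim probes, 3 passed in each diet comparison and in the genotype comparison on sucrose, and 5 for the interaction. The mean over a gene's probes gave 2 for the wild-type diet change and 5 for the interaction, and keeping outlier-marked spots gave 3 and 5. Taking off the median of other genes at the members' level gave 3 for the wild-type diet change and 14 for both factors, and taking off that of all genes gave 17 for both factors. Of 132 values of named members, quantile normalization moved 86 by more than 0.0582, the mean over probes 20 and normexp 6, and none turned its sign beyond that. The cause of these shifts was not tested.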
